A study of Mus musculus with 82 samples.

Results

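Cyp2c29, Cyp2c39 and Cyp2c40 were described across the livers of BXD mice as the probes whose platform symbol is one of these names. Each gene had 1 probe, so they are 3 of 21936 probes on each array and 3 of the 3439 genes that could be named. The probes are named NM_007815 for Cyp2c29, NM_010003 for Cyp2c39 and NM_010004 for Cyp2c40.

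The series held 82 arrays on which 2 RNAs met, and each array gave 1 log ratio per probe. Adult liver of female BXD mice was on 40 arrays and of male BXD mice on 32 arrays, each against mixed RNA of day 17.5 B6 embryos, and B6 male liver met the same mix on 2 arrays. A further 6 arrays set B6 liver directly against D2 liver, 3 labelled female and 3 labelled male, and 2 arrays set RNAs labelled as enriched B6 and D2 liver against each other, 1 of each sex. The labels hold 17 BXD strains in both sexes, while the series description names 18 strains, 3 unfasted males of each and ages of 10 to 20 weeks. B6 is C57BL/6J and D2 is DBA/2J, and each BXD strain is an inbred mosaic of these 2 parental genomes. No allele was engineered and no treatment is given. The sources used here do not say whether an RNA was pooled from several mice, so the spread between arrays of 1 strain and sex may be technical.

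Each strain and sex had 1 to 5 arrays. Both dye orientations in both sexes were available for 13 strains, and BXD8, BXD9, BXD14 and BXD27 had forward arrays only. The medians of all arrays lay between -0.002 and 0.115 on the log2 scale. The 33 forward and swapped pairs of the same strain, sex and replicate correlated at 0.556 to 0.895 over probes once turned the same way. On each of the 74 arrays, 10 probes of adult hepatocyte genes had a median of 2.97 or more (log2 of liver over mix). On the same arrays 14 probes of embryonic genes had a median of -1.62 or less. The direction of the ratios was taken in part from these genes, so their sign is no separate check of the tissue label. The BXD arrays carried their label of sex in the median of the Y-linked Eif2s3y, at -0.17 over female arrays and 0.72 over male arrays. By strain the female value was the lower in 15 of 17 strains for Eif2s3y, with BXD8 (0.12) and BXD27 (0.10) as the exceptions (female minus male, log2), and in 14 of 17 for Uty, with BXD18 (0.01), BXD27 (0.38) and BXD28 (0.54) as the exceptions. For the X-linked Eif2s3x and Ddx3x it was the higher in 17 of 17. The direct arrays labelled female did not carry theirs, and they are set out with the results that rest on them.

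Cytochrome P450 enzymes of the Cyp2c family sit in the endoplasmic reticulum of hepatocytes and add oxygen to drugs, steroids, retinoids and fatty acids, with electrons delivered by NADPH-P450 reductase. In mice the family has expanded by gene duplication, so its members lie side by side and resemble each other closely. Several are induced through the nuclear receptors CAR and PXR, and in rodents the sex pattern of pituitary growth hormone, acting through STAT5b, sets the level of many hepatic P450 genes. Cyp2c29 makes epoxides of arachidonic acid and is a classic target of phenobarbital, Cyp2c39 is known for the hydroxylation of retinoic acid, and Cyp2c40 hydroxylates arachidonic acid.

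All 3 genes lie in the Cyp2c cluster of chromosome 19, which holds 14 protein-coding genes and 4 pseudogenes in the RefSeq annotation of GRCm38.p6. Cyp2c29 lies at chr19:39287044-39330713, Cyp2c39 at chr19:39347346-39569568 and Cyp2c40 at chr19:39767073-39812814. Of these genes only 4 had a named probe, with Cyp2c55 as the other one, at chr19:39006940-39042690. The windows of 300 bases around each RefSeq start are shown because they let the members be told apart by sequence. Cyp2c39 has 2 annotated starts, both shown. Each is written 5′ to 3′ on the strand of the gene, with capitals at matches to a TATA box, an HNF4 motif or an HNF1 half-site.
Cyp2c29, chr19:39286835-39287134, plus strand: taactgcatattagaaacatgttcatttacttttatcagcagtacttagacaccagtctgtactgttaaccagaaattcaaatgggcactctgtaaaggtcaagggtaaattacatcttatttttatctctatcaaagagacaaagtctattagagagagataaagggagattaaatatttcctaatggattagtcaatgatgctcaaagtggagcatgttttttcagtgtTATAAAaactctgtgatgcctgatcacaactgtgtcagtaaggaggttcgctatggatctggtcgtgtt
Cyp2c39, first start, chr19:39347096-39347395, plus strand: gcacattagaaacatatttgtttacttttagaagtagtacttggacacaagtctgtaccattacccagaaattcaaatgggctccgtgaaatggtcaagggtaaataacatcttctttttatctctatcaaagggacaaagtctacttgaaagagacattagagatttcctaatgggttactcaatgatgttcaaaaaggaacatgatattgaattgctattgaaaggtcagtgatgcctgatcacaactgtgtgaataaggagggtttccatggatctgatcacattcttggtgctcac
Cyp2c39, second start, chr19:39510572-39510871, plus strand: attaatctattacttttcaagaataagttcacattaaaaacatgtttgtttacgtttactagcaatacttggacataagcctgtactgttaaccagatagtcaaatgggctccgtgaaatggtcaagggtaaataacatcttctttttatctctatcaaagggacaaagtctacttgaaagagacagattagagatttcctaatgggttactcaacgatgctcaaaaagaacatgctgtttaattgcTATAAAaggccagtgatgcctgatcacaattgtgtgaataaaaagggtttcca
Cyp2c40, chr19:39812765-39813064, minus strand: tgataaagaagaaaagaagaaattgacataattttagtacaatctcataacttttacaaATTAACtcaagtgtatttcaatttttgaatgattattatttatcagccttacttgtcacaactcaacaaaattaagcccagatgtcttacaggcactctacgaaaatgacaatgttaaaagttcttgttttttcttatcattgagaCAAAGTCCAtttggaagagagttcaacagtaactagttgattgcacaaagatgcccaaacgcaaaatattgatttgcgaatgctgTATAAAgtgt
In all, 5 motifs were searched on both strands, TTCNNNGAA for STAT5, GTTAAT for an HNF1 half-site, CAAAGTCCA for HNF4, TTATGNAA for the PAR bZIP factors and TATAAA for the TATA box. Among 32851 mouse windows of this length they were held by 8.3%, 7.1%, 0.475%, 3.38% and 13.6%, in that order. Positions count from the start that each window is drawn around, which for Cyp2c29 lies downstream of the first base of the gene given above. TATAAA began 19 bases before that start of Cyp2c29, 3 bases before the second start of Cyp2c39 and at base 41 after the start of Cyp2c40. The Cyp2c40 window alone among the 4 held CAAAGTCCA, which began 45 bases before the start, and ATTAAC, the reverse complement of the HNF1 half-site, which began 191 bases before it. The first Cyp2c39 window held none of the 5, and TTCNNNGAA was in none of the 4. These matches describe letters in a window and show no binding.

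In a global alignment of the windows, Cyp2c29 was 75.7% identical to the first and 69.0% identical to the second Cyp2c39 window. Cyp2c40 was 48.9% identical to Cyp2c29 and 45.5% and 53.9% identical to the Cyp2c39 windows. Its closest window in the cluster was that of Cyp2c69, at 80.9%. The transcripts of such copies may be read by 1 probe, and the probe letters were not analysed here, so each value below is that of the named probe and its attribution to a single Cyp2c gene is uncertain.

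Liver over embryo mix is given on the log2 scale, as the mean of the sexes in the 13 strains with both orientations. Cyp2c29 was the most enriched of the 3 in liver, at 3.63 ± 0.48 (SD over strains, n = 13), which is 12.3-fold. Its strain means ran between 2.60 in BXD18 and 4.33 in BXD6. Cyp2c40 averaged 2.13 ± 0.11, or 4.39-fold, with strain means between 1.93 and 2.30. Cyp2c39 averaged 0.91 ± 0.45, or 1.88-fold, with strain means between 0.36 and 1.61. Every one of the 13 strains was above 0 for each gene.

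The test was limma's moderated test with Benjamini-Hochberg adjustment over 21915 features, and a call also needed an absolute log2 ratio of at least 1. Across all features 4.69% were called higher in liver. Cyp2c29 (adjusted p = 1.26e-13) and Cyp2c40 (adjusted p = 4.83e-18) were called. Cyp2c39 passed the adjusted p (1.6e-06) but not the size. The 3 ratios are of different probes and do not rank the transcripts by abundance in liver. The embryo mix was common to all arrays, and its own spread does not enter this test.

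The other measured P450 genes give the setting. Of 19 on the list, 12 were called higher in liver and 0 lower, with a median of 1.25, against 0.07 over all features. The steroid hydroxylase Cyp2a4 was at 4.79 ± 0.34 (SD, n = 13), Cyp2f2, which activates naphthalene, at 3.54 ± 0.19, and the bile acid 12-alpha-hydroxylase Cyp8b1 at 1.24 ± 0.46. Cyp2c55, the remaining cluster gene, was at 1.22 ± 0.64 and was called (adjusted p = 2.6e-06). Among 7 genes that serve P450 enzymes, 3 were called higher in liver, namely the epoxide hydrolases Ephx1 (2.35) and Ephx2 (2.95) and the heme-binding P450 partner Pgrmc1 (3.10). Of 17 regulators of P450 genes 7 were called higher and 0 lower, among them the receptor CAR, encoded by Nr1i3, at 1.81 ± 0.25 and the growth hormone receptor gene Ghr at 1.43 ± 0.27.

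**Figure D1:**
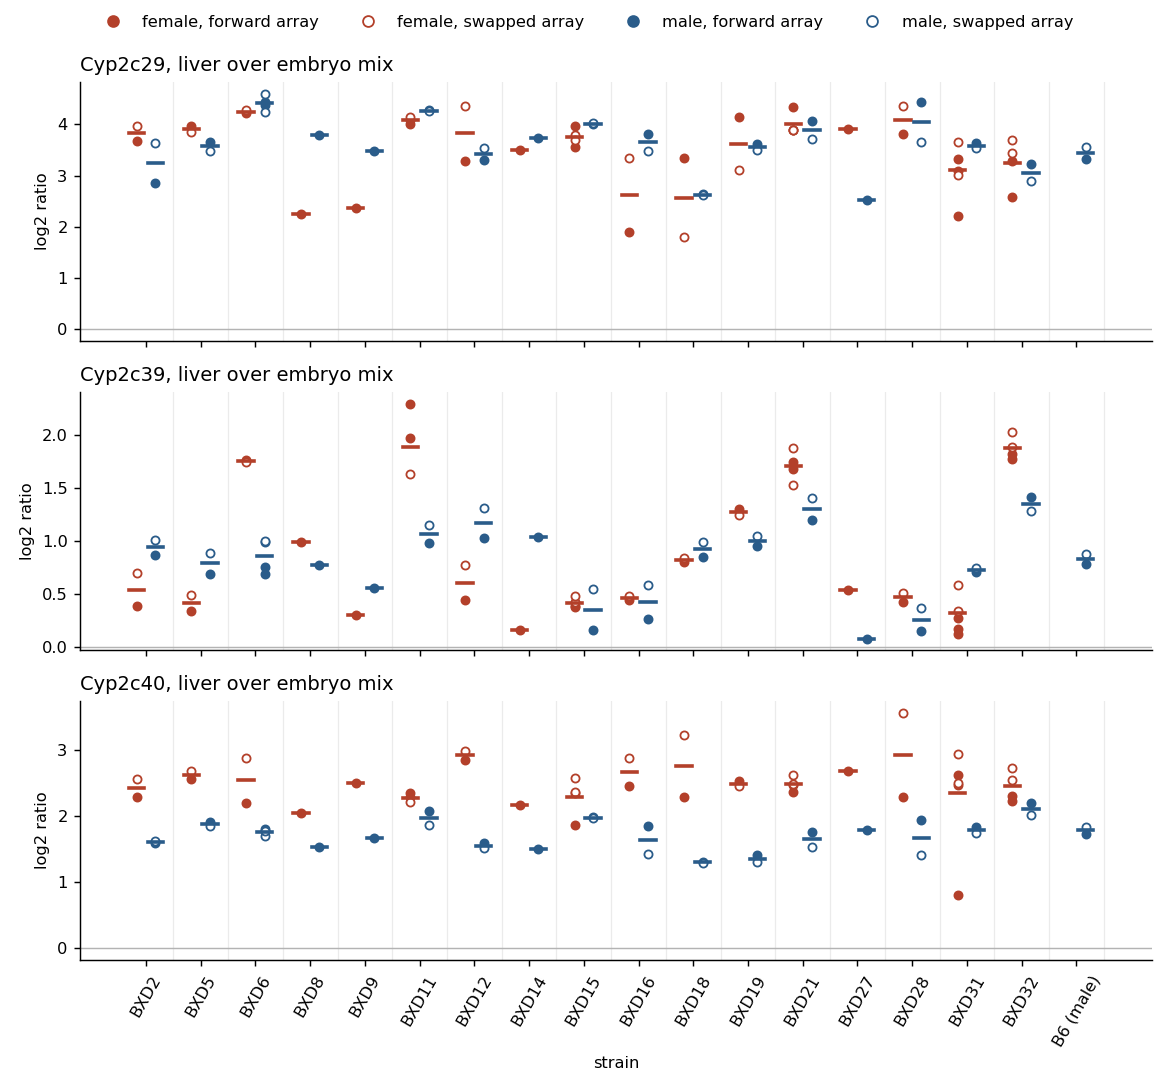
Log2 ratio of liver over embryo mix (y axis) of Cyp2c29, Cyp2c39 and Cyp2c40 in each strain (x axis), with 1 point per array, filled for forward and open for swapped, females left of males, and a bar at the mean of the strain and sex. Cyp2c40 bars of females lie above those of males in all 17 strains, while Cyp2c39 is spread widely among females, between 0.16 and 1.88.

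Of the 3 genes only Cyp2c40 was called different between the sexes. It averaged 2.51 ± 0.24 in females and 1.69 ± 0.22 in males (log2 of liver over mix, SD over strains, n = 17 each). Females lay between 2.04 in BXD8 and 2.92 in BXD28, with a median of 2.49, and males between 1.30 in BXD18 and 2.11 in BXD32, with a median of 1.67. The ranges of the sexes overlapped across strains, through the BXD32 male value above the BXD8 female value, but within each of the 17 strains the female value was the higher. The difference was 0.81 ± 0.08 (SE, with an SD of 0.35 over strains), or 1.76-fold, and passed limma's test with strain as a block (adjusted p = 4.2e-06). In the 13 strains with both orientations, which leave out BXD8 and BXD27, it was 0.84 (limma adjusted p = 0.000131). Across all features 33.7% were called in either direction and 16.5% higher in females, so a call was common here.

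The female minus male difference of Cyp2c40 was 1.45 in BXD18, 1.37 in BXD12, 1.25 in BXD28, 1.14 in BXD19 and 1.03 in BXD16. It was 0.30 in BXD11, 0.31 in BXD15 and 0.35 in BXD32, which are also among the strains with the highest male values. The male value is subtracted in this difference, so a high male value lowers it by arithmetic alone. The other 9 strains lay between 0.50 and 0.90.

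Cyp2c29 averaged 3.47 ± 0.65 in females and 3.58 ± 0.51 in males (SD, n = 17 each). The difference was -0.12 ± 0.15 (SE), lower in females in 9 of 17 strains, and was not called (limma adjusted p = 0.604). Its strains were far apart, between -1.54 in BXD8, where the female value was 2.25 and the male value 3.80, and 1.39 in BXD27, where the female value was 3.91 and the male value 2.51. Both of these strains had 1 forward array per sex, and they are the strains whose Eif2s3y was not lower in females. Within the 13 strains with both orientations the difference lay between -1.03 in BXD16 and 0.58 in BXD2.

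Cyp2c39 averaged 0.85 ± 0.61 in females and 0.80 ± 0.36 in males (SD, n = 17 each). The difference was 0.06 ± 0.11 (SE), higher in females in 10 of 17 strains, and was not called (limma adjusted p = 0.746). It ran both ways by strain, with 0.90 in BXD6 and 0.82 in BXD11, against -0.88 in BXD14 and -0.56 in BXD12. With 1 value per strain and sex, whether the sex difference itself varies by strain was not tested.

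The sex differences were compared between genes within the same livers, by an exact two-sided sign-flip test over the 17 strains with Benjamini-Hochberg adjustment over the 3 pairs. The female minus male difference of Cyp2c40 exceeded that of Cyp2c29 by 0.93 ± 0.69 (SD), in 16 of 17 strains (exact p = 0.000107, adjusted p = 0.00032). It exceeded that of Cyp2c39 by 0.76 ± 0.67, in 14 of 17 strains (exact p = 0.000534, adjusted p = 0.000801). Cyp2c39 and Cyp2c29 differed by 0.17 ± 0.82, in 11 of 17 strains, which did not pass (exact p = 0.397, adjusted p = 0.397).

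**Figure D2:**
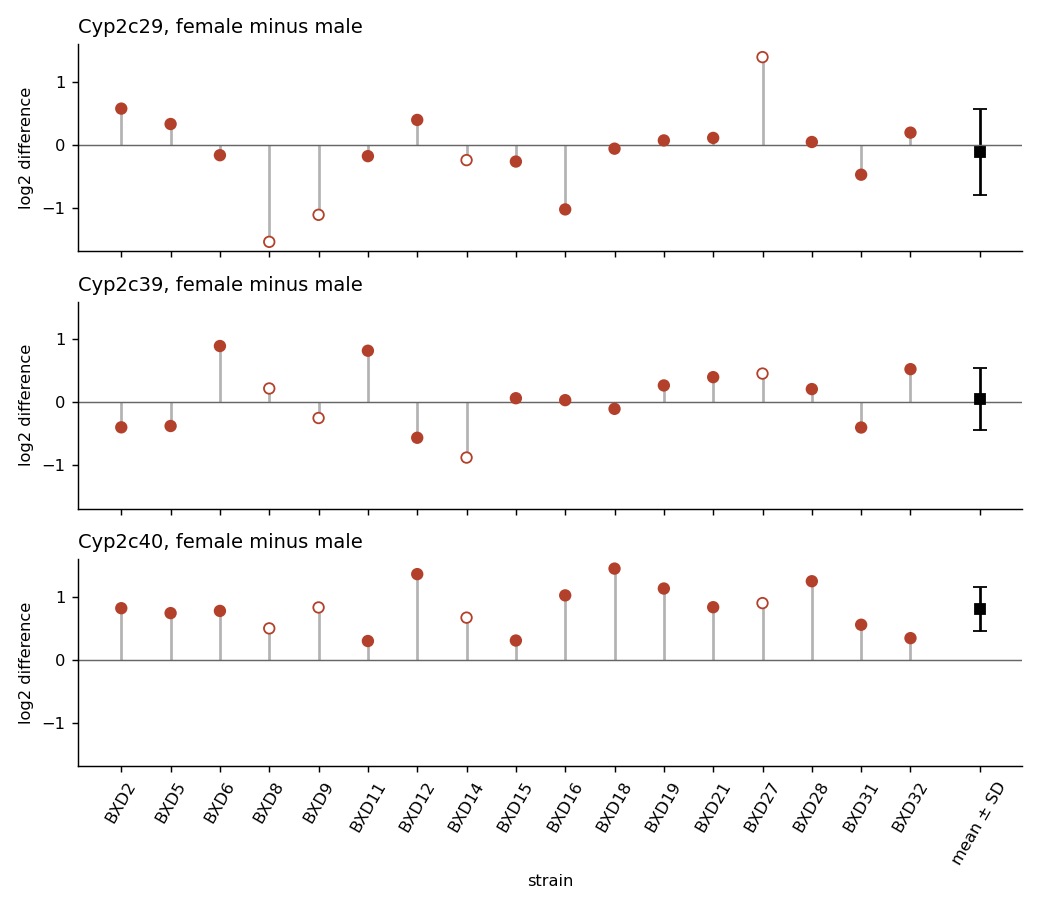
Female minus male difference in log2 ratio (y axis) by strain (x axis) for the 3 genes, open points for the 4 strains with forward arrays only, with the mean and SD over 17 strains as a square and bar. All Cyp2c40 points lie above 0, between 0.30 and 1.45, while 9 of the Cyp2c29 points lie below 0.

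Dye orientation and array order were checked beside this result. The Cyp2c40 difference was 0.60 on forward arrays of all 17 strains (limma adjusted p = 8.91e-05). On swapped arrays, which only the 13 strains with both orientations have, it was 1.12 (limma adjusted p = 0.000227). Both passed, but the sets of strains differ. Swapped arrays of females exceeded forward arrays of the same strain and replicate number by 0.45 ± 0.57 (SD, n = 17 pairs). Those of males differed by -0.15 ± 0.16 (n = 14 pairs). In the 4 strains with forward arrays only the Cyp2c40 sex difference was 0.73 and was not called (limma adjusted p = 0.273). There none of the 21915 features was called. Arrays fall into runs of consecutive numbers, which are not a batch that the labels name. Within the 5 runs that held both sexes the Cyp2c40 difference was 0.42, 0.42, 1.19, 0.67 and 0.90. Apart from the runs of strains with forward arrays only, these differences set females against males of other strains. In the 13 strains with both orientations, females and males of a strain never shared a run, so sex and run were largely confounded. With the run as a term the Cyp2c40 difference was 0.64 (limma adjusted p = 0.00237), in which fit 2 of the runs could not be separated from strains.

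Markers of other cells also moved with sex in part. The adult hepatocyte list had a median of 3.26 to 4.03 over female values and 3.30 to 3.95 over male values, with 2 of 10 genes called higher in females and 0 lower. Across all features 16.5% were called higher in females. Of 4 macrophage genes 2 were called higher in females, C1qa (0.35) and C1qb (0.37), while Cd5l (-0.18) and Marco (-0.10) were not called, with list medians of -0.08 to 0.70 in females and -0.11 to 0.50 in males. Lymphocyte genes were called higher in females for 2 of 4, with list medians of 0.11 to 0.51 in females and -0.07 to 0.30 in males. Of the other lists, endothelial genes had 1 of 4 called higher and 2 lower in females, stellate and fibroblast genes 2 of 5 higher, kidney, fat and muscle genes 1 of 2 higher, and red blood cell and pancreas genes 1 of 4 lower each. The part of cell composition in the Cyp2c40 difference was not tested, and in bulk liver fewer cells of a type and less RNA per cell cannot be told apart.

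Among the 19 other P450 genes 6 were called higher and 7 lower in females. Across all features 33.7% were called in either direction and 16.5% higher in females. The steroid hydroxylase genes Cyp2b9 and Cyp2b13 were higher by 2.19 ± 0.12 and 2.15 ± 0.12 (SE, n = 17 strains), and Cyp2a4 by 1.01 ± 0.17. Only these 3 of the 19 listed P450 genes had a higher difference than Cyp2c40. Cyp7b1, the oxysterol hydroxylase, was lower in females by 2.54 on the log2 scale (difference -2.54 ± 0.18), and Cyp2d9, a steroid hydroxylase, had a difference of -0.93 ± 0.13. Cyp2c55 had a difference of 0.00 ± 0.14 and was not called (limma adjusted p = 0.99). Of the 17 regulators 2 were called higher in females, namely the bile acid receptor gene Nr1h4 (0.34) and Socs2 (0.38), a feedback inhibitor of growth hormone signalling. Stat5a (-0.32) and Onecut1 (-0.36), a hepatocyte transcription factor, were called lower in females. Sex calls were thus no more common among the regulators than over all features (33.7%). The Stat5b difference of 0.05 was not called.

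**Figure D3:**
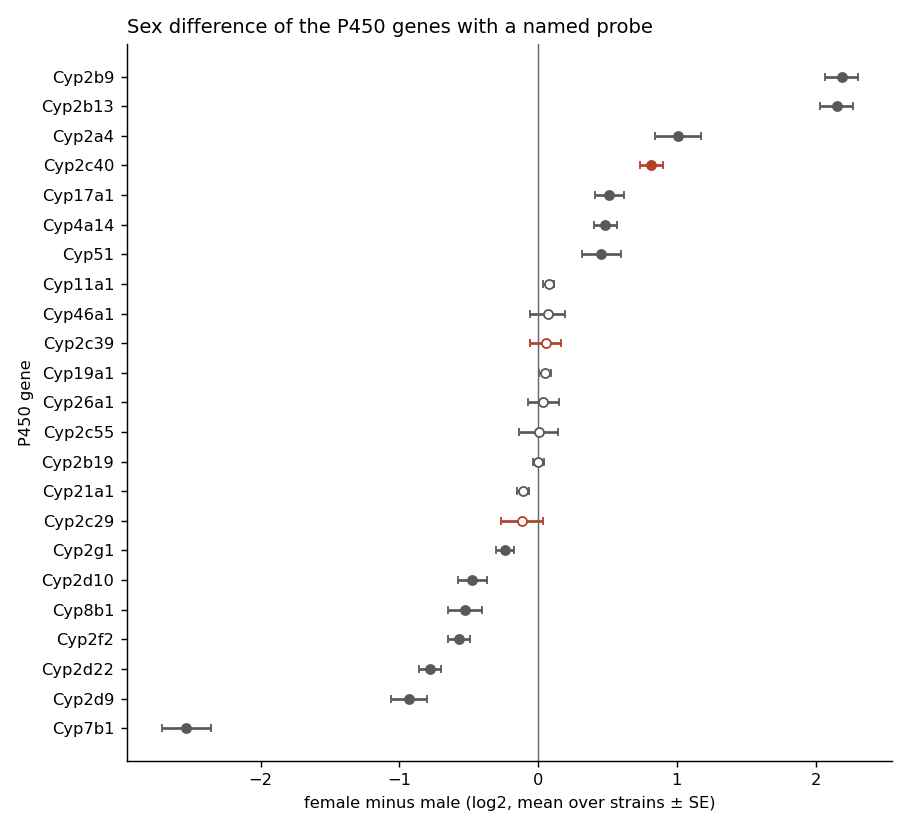
Female minus male difference in log2 ratio (x axis, mean over 17 strains with SE bars) of the 3 members, Cyp2c55 and the 19 other listed P450 genes (y axis), red for the members and filled where called. Cyp2c40 at 0.81 lies with the genes higher in females, and Cyp2c29 at -0.12 and Cyp2c39 at 0.06 lie near 0.

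The genes also differed in how far the strains were spread. Over the 13 strains with both orientations, in the mean of the sexes, the SD was 0.48 for Cyp2c29, 0.45 for Cyp2c39 and 0.11 for Cyp2c40, against a median of 0.15 over all features. The strain difference was called for Cyp2c29 by limma's moderated F with sex as a term (F = 6.36, adjusted p = 0.0494), where 1.2% of all features were called. Cyp2c39 (F = 4.34, adjusted p = 0.139) and Cyp2c40 (F = 0.38, adjusted p = 0.972) were not called.

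Cyp2c29 was lowest in BXD18, at 2.57 in the female and 2.63 in the male value, and highest in BXD6, at 4.25 in the female and 4.41 in the male value, a 3.32-fold range of strain means. BXD11 (4.09 and 4.27) and BXD28 (4.09 and 4.05) were also high in females and males alike. BXD16 was low in females alone, at 2.62 against 3.65 in males. This call sits at the threshold: adjusted p was 0.224 when BXD18 was left out and 0.0506 without the BXD31 female arrays of replicate 2, and it passed without BXD2, BXD5 or BXD16 alone among the 13 strains left out in turn.

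The spread between arrays of the same strain, sex and replicate number was wide for Cyp2c29 in females. Swapped minus forward arrays differed with an SD of 0.80 over 17 female pairs and 0.36 over 14 male pairs. The BXD16 female value joins 1.90 on the forward and 3.35 on the swapped array, and the BXD18 female value joins 3.34 on the forward and 1.80 on the swapped array. In BXD18 males the forward array gave 2.64 and the swapped array 2.62.

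Cyp2c39 had the closest arrays of the 3 genes, with an SD of swapped minus forward of 0.21 in females and 0.13 in males. Where a strain and sex had replicate numbers 1 and 2, in 5 cases, replicate 2 exceeded replicate 1 by 0.04 to 0.18. Against that, female values fell far apart. BXD11 (1.88), BXD32 (1.88), BXD6 (1.75) and BXD21 (1.70) were highest, BXD19 was at 1.27, BXD8 at 0.99 and BXD18 at 0.82, and the other 10 strains lay between 0.16 and 0.60. In males the strains lay between 0.08 in BXD27 and 1.35 in BXD32, and BXD21 (1.30), BXD12 (1.17) and BXD11 (1.06) came next. Over the 13 strains the SD was 0.63 in females and 0.35 in males, a difference that was not tested. With all 17 strains in the fit the strain difference of Cyp2c39 was called (adjusted p = 0.0273), but 5589 features were called there, and 4 of those strains have 1 dye orientation.

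Cyp2c40 strains lay within 1.93 in BXD19 and 2.30 in BXD28 as means of the sexes, a range of 1.29-fold. By the SD of these means over strains Cyp2c40 ranked 15283 of 21915 features, with Cyp2c29 at 313 and Cyp2c39 at 415. Within a sex the Cyp2c40 SD over the same 13 strains was wider than in the means, at 0.215 in females and 0.236 in males.

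Female and male values were set against each other over the 13 strains, with permutation tests of 100000 resamples adjusted over the 3 genes. All points share the embryo mix. Cyp2c29 gave r = 0.694 (permutation p = 0.008, adjusted p = 0.02) and rho = 0.676 (permutation p = 0.0134, adjusted p = 0.0201). Without BXD18 and BXD6, the strains farthest from the male median, r was 0.428 (permutation p = 0.19), which did not pass. Leaving out the most extreme strains narrows the range and can by itself lower r. The Cyp2c29 relation passed without BXD6 (0.641, permutation adjusted p = 0.0369) but not without BXD18 (0.532, permutation adjusted p = 0.113). With all 17 strains, 4 of which have 1 orientation, r was 0.331 (permutation p = 0.193). Cyp2c39 gave r = 0.676 (permutation p = 0.0133, adjusted p = 0.02) and rho = 0.736 (permutation p = 0.00564, adjusted p = 0.0169), and without its 2 farthest strains r was 0.638 (permutation p = 0.0346). Cyp2c40 gave r = -0.511 (permutation p = 0.0754, adjusted p = 0.0754) and rho = -0.560 (permutation p = 0.0504, adjusted p = 0.0504), which did not pass, and without its 2 farthest strains r was -0.455 (permutation p = 0.159). With all 17 strains r was 0.583 for Cyp2c39 (permutation adjusted p = 0.0414), but rho was 0.551 (adjusted p = 0.0703), and r was -0.172 for Cyp2c40. Over the 13 strains the Cyp2c39 r no longer passed without BXD18 (0.683, permutation adjusted p = 0.0531) or without BXD32 (0.602, adjusted p = 0.0563). Without BXD18 the r itself was not lower than with all 13 strains (0.676), and the adjusted p also depends on the other genes.

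**Figure D4:**
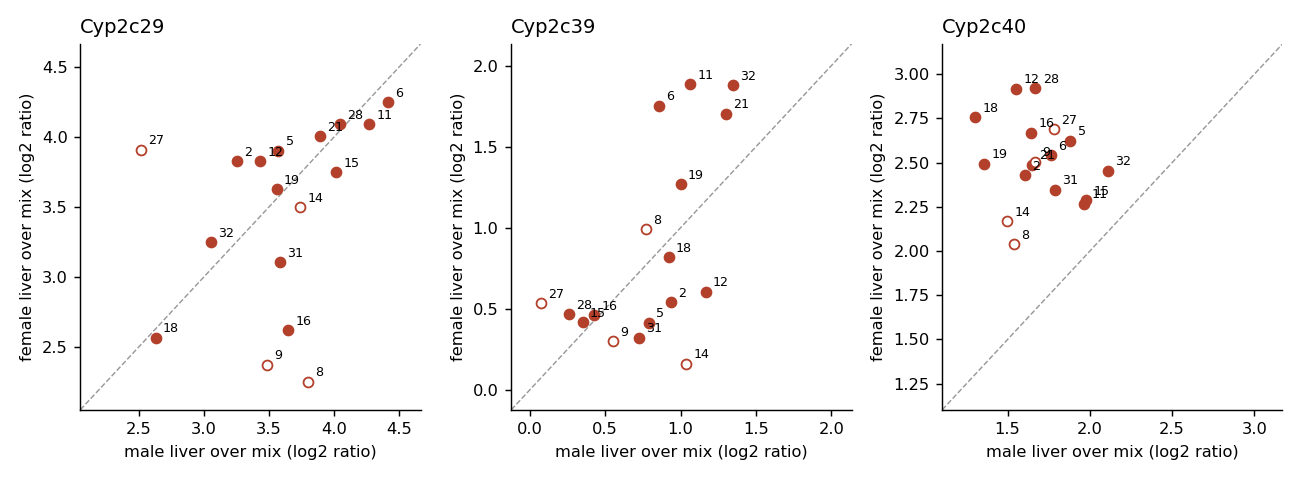
Female (y axis) against male (x axis) log2 ratio of liver over mix for each gene, with strain numbers beside the points, open points for strains with forward arrays only and a dashed line of equal values. For Cyp2c39 the strains 6, 11, 21 and 32 stand at the top, at 1.70 to 1.88 in females, and for Cyp2c40 every point lies above the line.

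No relation between the 3 genes over strains passed the test. Cyp2c40 strain means varied little (SD 0.11), which limits what the pairs with Cyp2c40 can show. The strain means correlated at r = -0.117 (rho = -0.154) for Cyp2c40 and Cyp2c39, at r = 0.203 (rho = 0.231) for Cyp2c40 and Cyp2c29, and at r = 0.162 (rho = 0.121) for Cyp2c39 and Cyp2c29. The 3 Pearson values had permutation p = 0.703, 0.504 and 0.598, each 0.703 after adjustment over the 3 pairs. The 3 Spearman values had permutation p = 0.616, 0.446 and 0.7, each 0.7 after adjustment. Without the 2 strains farthest from the median of the gene named first, r was 0.155, 0.120 and 0.309.

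The named genes whose pattern was most like that of each member were ranked by Pearson's r over 26 values, 1 per strain and sex, among 3435 named genes. These are descriptions over livers that share the mix, with no test. For Cyp2c29 they were Cela1 (0.749), Gcat (0.734), Traf2 (0.704), Cyp2c55 (0.703) and Bhmt (0.699). Cyp2c55 lies in the same cluster and was itself called different between strains (SD 0.64, adjusted p = 0.0459). Cela1 encodes a pancreatic elastase. The other pancreatic genes measured, Prss2, Amy2 and Reg1, correlated with Cyp2c29 at 0.088, -0.210 and 0.019. Bhmt is a methyltransferase of hepatic methionine synthesis and Gcat an enzyme of threonine breakdown.

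For Cyp2c39 the leading genes were Ndrg1 (0.624), Clca3a1 (0.601), Cyp8b1 (0.570), Tle1 (0.542) and Actg1 (0.520). Of these, Cyp8b1 kept an r of 0.727 over females and 0.785 over males, while Actg1 had 0.679 over females and 0.049 over males. For Cyp2c40 they included Cyp2b9 (0.896), Lect2 (0.859), Fkbp7 (0.844) and Ndufa6 (0.840). Those values hold the difference between the sexes, and within a sex they were lower, with 0.432 over females and 0.344 over males for Cyp2b9. Lect2, a hepatocyte-secreted protein, had 0.786 over females and 0.435 over males.

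Genes flanking the cluster were read for the same pattern. On the side of Cyp2c55, the retinoic acid hydroxylase gene Cyp26a1, at chr19:37697738-37701536, correlated with Cyp2c29 at 0.476 and with Cyp2c39 at -0.160, and differed between strains (SD 0.62, limma adjusted p = 0.00823). Hells, a chromatin remodeller gene nearer to the cluster, correlated at -0.055 with Cyp2c29. Beyond the other end, Pdlim1, which encodes a cytoskeletal adaptor, correlated with Cyp2c29, Cyp2c39 and Cyp2c40 at 0.001, -0.166 and -0.114.

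The B6 male liver set against the mix on a forward and a swapped array lay inside the BXD males for each gene. Cyp2c29 was at 3.33 and 3.55, Cyp2c39 at 0.78 and 0.88, and Cyp2c40 at 1.73 and 1.84. With B6 means of 3.44, 0.83 and 1.79, 5, 8 and 12 of the 17 BXD male values were lower. B6 had 1 replicate number, which allows no test, and D2 liver was not set against the mix in the arrays used here.

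The direct arrays of B6 against D2 come with a doubt about their labels. On the 3 arrays labelled female, the Y-linked genes Eif2s3y (0.74, 0.69 and 0.56) and Uty (0.57, 0.57 and 1.37) were higher on the B6 side (B6 minus D2, log2). On the same arrays Cyp2b9, higher in BXD females, was at -2.78, -2.92 and -2.52, and Cyp7b1, lower in BXD females, was at 2.67, 2.47 and 2.59. On the arrays labelled male Cyp2b9 was at 0.14, -0.26 and -0.18 and Cyp7b1 at 0.31, -0.09 and -0.07. The values of the Y-linked genes, Cyp2b9 and Cyp7b1 go against the label female. On the arrays labelled female strain and sex cannot be told apart. The X-linked genes were mixed. Eif2s3x was at 0.17, -0.43 and -0.44 on the arrays labelled female and at 0.30, -0.04 and 0.05 on those labelled male. Ddx3x was at -0.02, -0.48 and -0.63 on the arrays labelled female and at 0.25, -0.57 and -0.41 on those labelled male. The forward and swapped arrays of replicate 1 correlated at only 0.133 (labelled female) and -0.019 (labelled male) over probes after turning.

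For the 3 members the arrays labelled female were the lower ones. Cyp2c29 was at -1.33, -1.42 and -1.46 on them and at 0.09, -0.57 and -0.35 on the arrays labelled male. Cyp2c39 was at -0.89, -1.20 and -1.52 on them and at -0.31, -0.15 and 0.02 on the arrays labelled male. Cyp2c40 was at -1.23, -1.30 and -1.54 on them and at -0.45, -0.71 and -0.51 on the arrays labelled male. The arrays of each label did not overlap for any of the 3 genes, but 19.5% of all features did not overlap either and 8.97% were lower on every array labelled female, so that separation was common here. Cyp2c40 was below 0 on all 6 arrays.

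**Figure D5:**
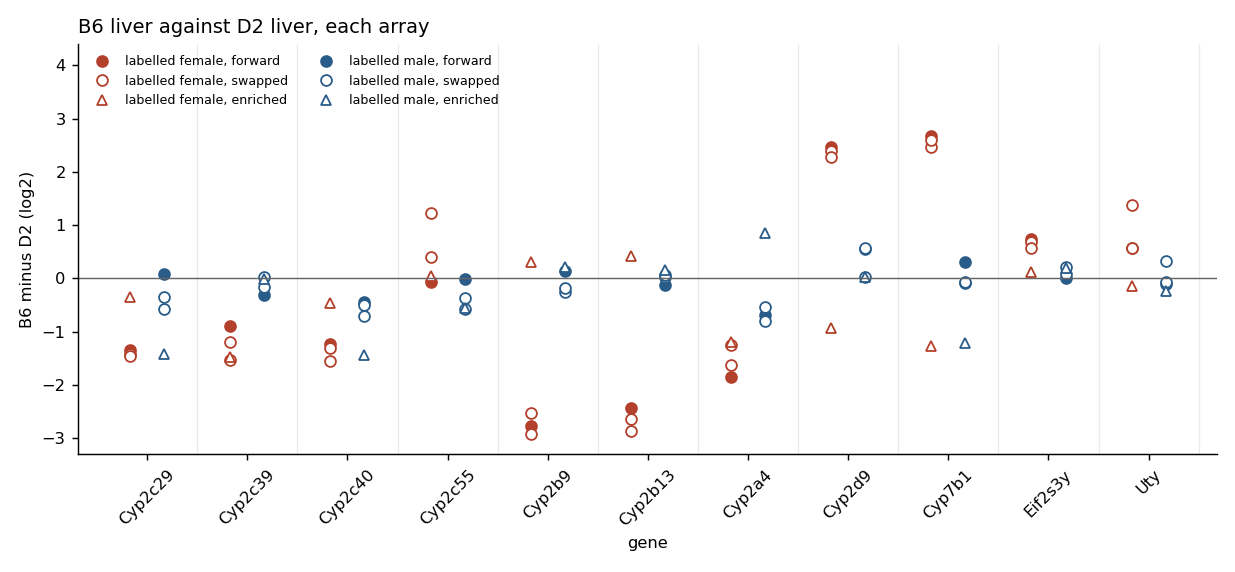
B6 minus D2 difference on the log2 scale (y axis) on each direct array for the members, Cyp2c55, P450 genes that differ by sex and Y-linked genes (x axis), arrays labelled female left of arrays labelled male, with triangles for enriched RNA. On arrays labelled female Cyp2b9 reaches -2.92 and Cyp7b1 2.67, while on the 3 arrays labelled male with RNA that was not enriched both lie within -0.26 and 0.31.

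Over 4 values, 1 per label of sex and replicate number, B6 minus D2 was -0.97 ± 0.51 for Cyp2c40 (SD, adjusted p = 0.224), -0.85 ± 0.65 for Cyp2c29 (adjusted p = 0.36) and -0.69 ± 0.71 for Cyp2c39 (adjusted p = 0.377) in limma. None of the 3 was called, where 0.178% of features were. On the arrays labelled male alone the values were -0.54 for Cyp2c40 (limma adjusted p = 0.61), -0.29 for Cyp2c29 (0.749) and -0.11 for Cyp2c39 (0.856), an alternative chosen after seeing the data, and 0 features were called.

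The label of sex was tested on the same 4 values. Arrays labelled female minus arrays labelled male gave -1.12 ± 0.13 (SE) for Cyp2c29, -1.18 ± 0.23 for Cyp2c39 and -0.86 ± 0.16 for Cyp2c40, with limma adjusted p of 0.448, 0.605 and 0.605. By limma's adjusted p 0 features were called (0%), against 1673 at an unadjusted p under 0.05. The unadjusted limma p was 0.001 for Cyp2c29, 0.00619 for Cyp2c39 and 0.00556 for Cyp2c40, so the 3 members were among these, but with trend and robust settings it was 0.135, 0.0795 and 0.289 for the same genes. By the unadjusted limma p of this difference in the main fit, not by its size, Cyp2c29 ranked 49, Cyp2c40 191 and Cyp2c39 220 of 21915 features. In the BXD livers female minus male was -0.12 for Cyp2c29, 0.06 for Cyp2c39 and 0.81 for Cyp2c40. The 2 sets of values join different arrays and strains, and no test compared them.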

How the data were processed

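RNA of liver was measured on 2-colour arrays. The authors deposited 1 log ratio per probe and array, read here as log10 because 94 values equal 2 or -2 exactly, and multiplied to log2; the sources used here state neither base, scanner nor normalization. Both channels carry the label cy3, so direction was taken from the channel order and from hepatocyte over embryonic genes, higher on 74 of 74 arrays, and is likely, not stated. One BXD11 female array is titled a dye swap but has its channels in forward order, which was followed. That array correlated at 0.846 with the other forward array of that strain and sex. The platform annotation and RefSeq named 3439 of 21915 features, and probes of 1 symbol were averaged. Values were averaged over arrays of 1 orientation, then over orientations, for each strain and sex. Tests used limma 3.58.1 in R 4.3.3 with Benjamini-Hochberg adjusted p under 0.05 across features, tested on simulated data, besides exact and permutation tests in Python 3.11.15 with numpy 2.4.6. Liver was tested on 13 strain means, sex on 34 values with strain as a block, strain on 26 values with sex as a term, and B6 against D2 on 4 values. Enriched RNA was left out of the main tests. Windows were aligned with Biopython 1.88. Promoters and coordinates are RefSeq's on GRCm38.p6, used for gene positions only. Named genes are the 3 members, the members of the gene lists, the 5 genes most like each member and the genes flanking the cluster; the result of a gene that met this rule is not reported here. The members and lists were chosen with earlier results of these data known. Alternatives covered centring, scaling, orientation, replicate, run, block and leaving out strains. Signal intensity was not analysed here, so no bound on the precision can be given from it.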

Additional observations from a re-analysis of the deposited data

Results flagged for a closer look

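Among 15 sets of 4 or 5 arrays of 1 strain and sex, 1 set per gene, 2 arrays lay far from the others by Dixon's criterion, which chance alone meets in about 1 set of 20. On the forward array of replicate 2 of BXD31 females Cyp2c40 was at 0.81 (log2 of liver over mix), while the other 4 arrays of that strain and sex lay between 2.47 and 2.94, and the gap was 0.779 of the whole range. The same array gave 2.21 for Cyp2c29, where the other 4 lay between 3.02 and 3.66, and 0.27 for Cyp2c39, inside the others. Without both replicate 2 arrays the Cyp2c40 sex difference was 0.83 (limma adjusted p = 3.03e-06). On the forward array of replicate 2 of BXD21 females Cyp2c29 was at 4.35, while the other 3 arrays lay between 3.89 and 3.90, and the gap was 0.978 of the range.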

How the results depend on the processing

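Across 29 results 542 alternatives were computed, and 495 kept the direction and the side of the threshold (counts within 1.5 times). The liver results stayed the same in every alternative run. So did the comparison of sex differences between genes, but its only alternatives were the 13 strains with both orientations and leaving out each strain. Centring, scaling, orientation, replicate and run were not varied for that comparison. Signal over background was not analysed here, so no limit from it can be given.

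The Cyp2c40 sex difference stayed called in every alternative except the 4 strains with forward arrays only (0.729). There Cyp2c39 turned to -0.112, and on swapped arrays Cyp2c29 turned to 0.073, neither called. The strain call of Cyp2c29 (SD 0.482) was lost with trend and robust settings (0.482), forward arrays (0.505), swapped arrays (0.547), all 17 strains (0.477), replicate 1 (0.484) and, chosen after seeing the data, without the BXD31 female arrays of replicate 2 (0.482). Leaving out each strain gave 0.387 to 0.504. All 17 strains called Cyp2c39 (0.435). The cause was not tested. Counts of sex calls were 4695 with a run term and 0 in the 4 forward strains, against 7381. Strain calls numbered 164 on forward arrays, 101 on swapped arrays and 5589 with all 17 strains, and 139 to 278 on leaving out each strain, against 262.

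B6 against D2 called 39 features, but 24 after quantile normalization, 0 with trend and robust settings, 274 with a dye term, 510 with the enriched arrays, 25 with replicate 1, 683 on swapped arrays, 0 to 29 without each value and 0 on arrays labelled male. With the enriched arrays Cyp2c40 was called (-0.965). The sex term called 1 feature with trend and robust settings. Replicate numbers 1 and 2 are not stated to pair animals, and the deviations of same-numbered values correlated at 0.325 over features. With the replicate block 9 features were called, the 3 members not among them (-0.974 for Cyp2c40), and in the BXD sex test the block gave 0.810 for Cyp2c40.

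Across strains, Cyp2c40 and Cyp2c29 turned to r = -0.101 in females, and Cyp2c39 and Cyp2c29 to -0.314 in males. Leaving out each strain gave -0.374 to 0.050 for Cyp2c40 and Cyp2c39. Between the sexes r was 0.331 for Cyp2c29 with all 17 strains, 0.532 to 0.824 on leaving out each strain, 0.602 to 0.761 for Cyp2c39 and -0.618 to -0.441 for Cyp2c40.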

Other observations

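The 2 arrays of RNA labelled as enriched entered no main test, and what was enriched is not stated in the labels. On the array labelled female B6 minus D2 was -0.34 for Cyp2c29, -1.48 for Cyp2c39 and -0.46 for Cyp2c40, and on the array labelled male it was -1.42, -0.01 and -1.44 for the same genes. Cyp2c29 and Cyp2c40 were thus low in B6 on the array labelled male, and Cyp2c39 on the array labelled female. Cyp2b9 was at 0.30 on the array labelled female and 0.22 on the array labelled male, and Eif2s3y at 0.12 and 0.20, neither like its values on the direct arrays labelled female. Cyp7b1 was at -1.26 on the array labelled female and -1.22 on the array labelled male, opposite in sign to its values of 2.47 to 2.67 on the direct arrays labelled female. With 1 array each there is no test.

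Cyp2c55 on the direct arrays was at -0.06, 0.41 and 1.23 on those labelled female and at -0.02, -0.37 and -0.58 on those labelled male. Its B6 minus D2 difference was not called.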
